A study of Mus musculus with 2 samples.

Results

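Microglia without Arg1 transcripts were compared between retinas of optic nerve-injured mice given MSC-sEV and retinas of injured mice given PBS. The 158 barcodes were selected by their own transcripts out of 4269 barcodes in both libraries. They were 46 of the 1775 barcodes that passed the quality filters in the MSC-sEV library and 112 of the 896 in the PBS library. Each UMI, a random tag added before amplification, stands for a captured molecule of RNA. To pass, a barcode needed 1500 UMIs or more from 300 genes or more, with no more than 15% of its UMIs from mitochondrial genes. A member then had to hold a UMI of at least 3 of the 7 microglia genes P2ry12, Tmem119, Siglech, Gpr34, Sall1, Fcrls and Olfml3, at least 5 UMIs of C1qa, C1qb and C1qc together, and 0 UMIs of Arg1. Barcodes were left out where 3 or more of the 6 macrophage genes Chil3, Gpnmb, Ms4a7, Retnla, Ccl8 and Mrc1 had at least 2 UMIs, or where more than 1 of the 5 cell cycle genes Mki67, Top2a, Ube2c, Birc5 and Cdk1 was present. The levels of these 22 genes in the members follow in part from that choice and are given as a description.

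Both groups were C57BL/6 mice, 6 to 8 weeks old, whose optic nerve had been injured 2 weeks before the retinas were taken, so both carried the injury. MSC-sEV is the usual short form for small extracellular vesicles released by mesenchymal stem cells, and PBS is the buffer given to the control mice. For each group the retinas of 6 mice were pooled, digested with papain, enriched for CD45-positive cells with magnetic beads and made into 1 droplet library. With 1 library per group there was no replicate and no test: higher and lower describe these 2 libraries, and each 95% interval covers counting error only.

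Microglia are the resident macrophages of the retina. In the healthy tissue they carry a homeostatic programme that includes purine receptors, the fractalkine receptor and genes kept on by TGF-beta. After injury they can turn parts of it down and switch on genes of antigen presentation, interferon response, chemokines and phagocytosis. Arg1 encodes arginase 1, an enzyme that splits arginine into ornithine and urea, and is used in mice as a marker of alternatively activated macrophages.

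The microglia label was checked against Cx3cr1 and Csf1r, microglia genes that the rule did not use. Cx3cr1 stood at 2201 CPM in MSC-sEV members and 755 CPM in PBS members, where CPM is a gene's count scaled to the total of the summed barcodes, beside 10.3 and 1.99 CPM in rods of the same libraries. Csf1r was likewise present in the members of both libraries, at 2343 CPM in MSC-sEV and 868 CPM in PBS, beside 22.8 and 6.63 CPM in rods. These rods were chosen to hold no UMI of the C1q genes or of the 7 microglia genes. That choice can lower their level of free microglia RNA, so the rods are not an independent background. By the rule, every member held at least 3 of the 7 microglia genes. Of the 46 MSC-sEV members, 1, 11, 13, 10 and 11 barcodes held 3, 4, 5, 6 and 7 of the 7 microglia genes. Of the 112 PBS members, 9, 22, 20, 28 and 33 barcodes did so. Barcodes that met every other condition but held only 2 of the genes numbered 11 in the MSC-sEV library and 13 in the PBS library. The lowest C1q sum of a member was 5 UMIs in MSC-sEV and 10 UMIs in PBS, whereas the highest sum just outside was 1 and 0 UMIs. Outside the Arg1 condition, 30 otherwise matching MSC-sEV barcodes had exactly 1 Arg1 UMI, against 0 in PBS. Outside the cell cycle condition, 10 otherwise matching MSC-sEV barcodes and 0 PBS barcodes held 2 or more cycle genes. The macrophage condition removed 0 barcodes that met all the other conditions, Arg1 included. The 2 libraries shared 0 barcode sequences.

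Many PBS members carried transcripts of rod photoreceptors next to those of microglia. The summed share of 20 rod marker genes had a median of 0.180% of UMIs in MSC-sEV members, with a highest value of 10.3%, against a median of 4.17% and a highest value of 18.6% in PBS members. More than 1% of rod UMIs was found in 8 of 46 MSC-sEV members (17.4%, exact interval 7.82 to 31.4) and in 70 of 112 PBS members (62.5%, 52.9 to 71.5). The plot of rod share against UMIs shows them above the dashed line, at all depths in PBS. Of the 70 rod-rich PBS members, 40 fell into 11 groups of 2 to 7 barcodes. Each group was linked by pairs whose counts agree within sampling noise, with a mean chi-square per gene under 1.2. Not every pair within a group had to agree. The 7 barcodes of 1 group, for example, held 7032 to 8966 UMIs with 13.5 to 14.6% rod transcripts. Counted once, the PBS members were 83 distinct profiles, and 41 of the 70 rod-rich barcodes remained. In the MSC-sEV library, 1 member agreed in this sense with 1 barcode that had a single Arg1 UMI. None of the 42 PBS members with at most 1% rod UMIs had such a partner. The results below are therefore given for all members and for the 38 MSC-sEV and 42 PBS members with at most 1% rod UMIs, called low-rod members. This limit was chosen with the data in view.

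**Figure D1:**
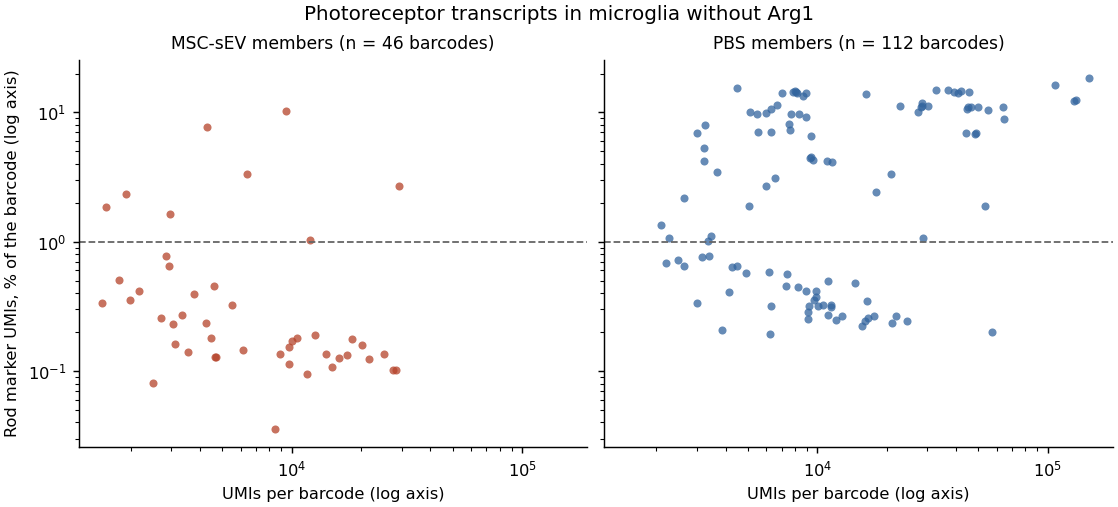
Share of rod marker UMIs (%, log axis) against UMIs per barcode (log axis) in the members, with MSC-sEV on the left and PBS on the right; each point is 1 barcode and the dashed line marks 1%. Of the 46 MSC-sEV barcodes 8 lie above the line, against 70 of the 112 PBS barcodes.

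The members were also of unequal depth. They held a median of 5842.5 UMIs and 2263.5 genes in MSC-sEV, with 422495 UMIs in all, against a median of 9378 UMIs and 3230 genes in PBS, with 2281833 UMIs in all. The low-rod members held 354786 UMIs in MSC-sEV and 458095 UMIs in PBS, with medians of 5842.5 and 9403.5. Rods, which serve below as a background for shares of barcodes with a UMI, had medians of 2713 and 2989 UMIs. The whole files held 16987131 UMIs for MSC-sEV and 8439740 UMIs for PBS.

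The members made up 2.59% of the filtered MSC-sEV barcodes (1.90 to 3.44) and 12.5% of the filtered PBS barcodes (10.4 to 14.8). Nondividing microglia with or without Arg1, chosen by the same markers, made up 12.2% (10.7 to 13.8) in MSC-sEV and 12.5% in PBS. Among these nondividing microglia, the lower share in MSC-sEV lay in the Arg1 condition. There, 46 of 217 such barcodes (21.2%, 16.0 to 27.2) lacked Arg1 in MSC-sEV. In PBS 112 of 112 lacked it, with a lower bound of 96.8% if each barcode is taken as an independent draw. With the cell cycle and macrophage conditions both dropped, barcodes with the microglia genes and C1q made up 18.3% in MSC-sEV and 12.5% in PBS. These values restate how the members were chosen and carry no test. Low-rod members alone made up 2.14% of the filtered barcodes in MSC-sEV and 4.69% in PBS. With agreeing members counted once, over the same denominators, the shares were 2.54% and 9.26%. The part of the bead enrichment in these shares was not tested.

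A barcode without an Arg1 UMI is not necessarily a cell without Arg1 RNA. In the MSC-sEV library, 22 of 52 nondividing microglia under 5000 UMIs lacked Arg1 (42.3%), as did 15 of 80 with 5000 to 15000 UMIs (18.8%) and 9 of 85 with 15000 UMIs or more (10.6%). The absence was thus more frequent in shallow barcodes. After every barcode was thinned to 1500 UMIs, the shares in the same depth classes were 51.9%, 50.0% and 36.5%, and 98 of 217 barcodes (45.2%) lacked Arg1. The microglia with Arg1 held 5863 Arg1 UMIs in all, up to 476 in 1 barcode. Arg1 was also seen in rods of the MSC-sEV library, at 83.1 CPM and in 9.05% of them, but in 0% of PBS rods. Whether the 30 MSC-sEV microglia with a single Arg1 UMI expressed the gene was therefore not settled, and the part of free RNA was not tested. No PBS microglia had an Arg1 UMI, although the PBS members were the deeper ones.

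**Figure D2:**
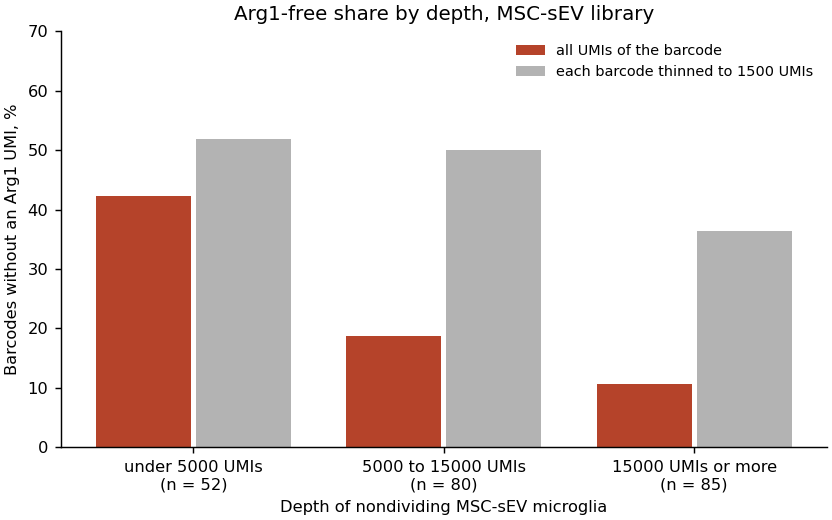
Share of nondividing microglia without an Arg1 UMI in the MSC-sEV library (%, axis from 0) by depth class, with all UMIs and after thinning to 1500 UMIs per barcode. With all UMIs the share is 42.3% under 5000 UMIs and 10.6% at 15000 UMIs or more, and after thinning it is 51.9% and 36.5%.

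Counts were summed over the members of a library, and genes with at least 30 UMIs were compared. Over all members, 1666 of 8455 genes were at least 2-fold higher in MSC-sEV (19.7%) and 2063 were at least 2-fold lower (24.4%). Over the low-rod members, 267 of 4073 genes were at least 2-fold higher (6.56%) and 274 were at least 2-fold lower (6.73%). The median log2 ratio of all genes was -0.01 in both. Values in brackets after a pair of levels are log2 ratios, MSC-sEV over PBS unless another pair is named. The counts over all members thus hold many genes that no longer differed 2-fold once the rod-rich barcodes were left out, and the direction of several gene groups changed with it. Most measured genes of antigen presentation and interferon response were higher in MSC-sEV in both sets, while most homeostatic genes were higher over all members and lower in the low-rod members.

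**Figure D3:**
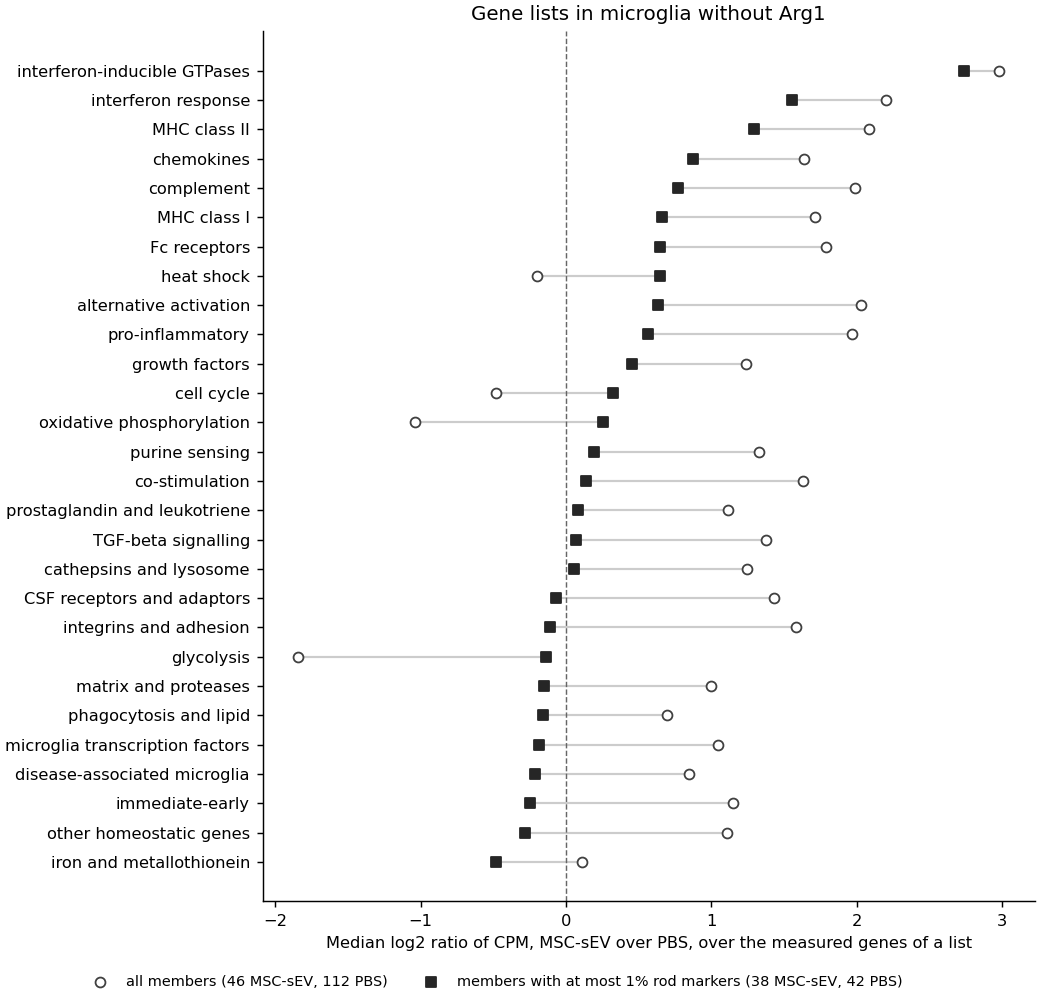
Median log2 ratio of CPM, MSC-sEV over PBS, for the measured genes of 28 lists, over all members (open circles) and over members with at most 1% rod UMIs (filled squares); the dashed line marks no difference. Interferon-inducible GTPases, interferon response genes and MHC class II lie to the right in both, at 2.74, 1.55 and 1.29 for the low-rod members, and the other homeostatic genes lie at 1.11 and -0.28.

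MHC class II molecules present peptides to CD4 T cells, and their genes were higher in MSC-sEV. Of 11 genes listed, 8 were measured over all members: all 8 were higher, 6 of them at least 2-fold, with a median log2 ratio of 2.09. In the low-rod members 5 of 8 were higher, 4 of them at least 2-fold, and the median was 1.29. Cd74, the invariant chain that escorts class II molecules through the cell, held 928 UMIs in 38 MSC-sEV members (2616 CPM) and 124 UMIs in 42 PBS members (271 CPM), 9.66 times the PBS level (8.00 to 11.8). H2-Aa, the alpha chain of I-A, stood at 631 CPM in MSC-sEV and 56.8 CPM in PBS, and its partner chain H2-Ab1 at 521 and 114 CPM. H2-Eb1, the beta chain of I-E, stood at 524 CPM in MSC-sEV and 34.9 CPM in PBS. These were the 4 genes of the list that were at least 2-fold higher. The accessory genes of peptide loading were closer: H2-DMa had 327 CPM in MSC-sEV and 251 CPM in PBS, and H2-Oa, which dampens loading, had 36.6 and 65.5 CPM.

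The class II signal was unevenly spread over barcodes. Cd74 was present in 34 of 38 low-rod MSC-sEV members and 15 of 42 PBS members, and H2-Aa in 12 and 3. At 1500 UMIs per barcode the Cd74 shares were 63.2% in MSC-sEV and 23.8% in PBS, and rods, which should lack the gene, showed 12.8% and 0%. For H2-Aa they were 15.8% and 4.76%, with 7.66% and 0.606% in rods. The MSC-sEV members were above their own rods for both genes. Class II transcripts were also more frequent in rods of the MSC-sEV library, where they summed to 1042 CPM in MSC-sEV and 9.28 CPM in PBS, against 4890 and 991 CPM in the low-rod members. How much of the members' level came from free RNA was not tested.

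A single MSC-sEV barcode weighed on the class II genes. It had 28442 UMIs and 5 of the 7 microglia genes, with 11 UMIs of P2ry12 and 34 of Cx3cr1, yet held 386 of the 1134 Cd74 UMIs and 146 of the 272 H2-Aa UMIs of all MSC-sEV members. It also held 45 of 46 Il4i1, 13 of 14 Ccr7, 13 of 15 Ccl22, 52 of 94 Fscn1 and 51 of 57 Tbc1d4 UMIs, genes known from mature dendritic cells. Without it, the low-rod log2 ratio was 2.62 for Cd74, 2.07 for H2-Aa and 2.62 for H2-Eb1, and the median of the list was 0.89. The higher Cd74 level thus stood without this barcode. Tbc1d4, which led the higher genes over all members at 57 UMIs in MSC-sEV against 2 in PBS, had 4 UMIs against 2 in the low-rod members without it.

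MHC class I genes, which present peptides to CD8 T cells, were higher in MSC-sEV to a smaller degree. All 14 measured genes of 15 were higher over all members, 13 of them at least 2-fold, with a median log2 ratio of 1.71. Of the 14, 13 were higher in the low-rod members and 4 at least 2-fold, with a median of 0.66. B2m, the light chain of class I, had 6381 CPM in MSC-sEV and 3916 CPM in PBS, a log2 ratio of 0.70. The classical heavy chain H2-K1 stood at 2086 and 1161 CPM (0.84), whereas H2-D1 differed little, with 2824 and 2678 CPM (0.08). Of the nonclassical genes, H2-Q7 had 109 UMIs in MSC-sEV and 35 in PBS (2.01). H2-Q7 has near-identical neighbours such as H2-Q6, between which counting may have split reads.

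Interferon response genes formed the second group that was higher in MSC-sEV in both sets. Over all members 24 of 27 measured genes of 30 were higher, 23 of them at least 2-fold, 3 were lower, 2 of them at least 2-fold, and the median log2 ratio was 2.20. Of 23 measured in the low-rod members 22 were higher, 17 of them at least 2-fold, and the median was 1.55. The list summed to 9330 CPM in MSC-sEV and 3091 CPM in PBS, against 584 and 394 CPM in rods. By barcode the sum had a median of 6086 CPM in MSC-sEV (1306 to 28657) and 2621 CPM in PBS (593 to 19824), so the ranges overlapped.

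Ifi27l2a, an interferon-induced membrane protein of mitochondria, held 580 UMIs in MSC-sEV (1635 CPM) and 127 UMIs in PBS (277 CPM), 5.90 times the PBS level (4.86 to 7.20). At 1500 UMIs it was seen in 68.4% of low-rod MSC-sEV members and 23.8% of PBS members, against 4.64% and 0.909% of rods. The restriction factors Bst2, which tethers virions, and Ifitm3, which blocks viral entry, had 981 and 896 CPM in MSC-sEV, against 310.0 and 177 CPM in PBS. Ly6e, the listed gene with the most UMIs, had 2077 CPM in MSC-sEV and 1048 CPM in PBS. All 4 of these abundant genes were higher, by log2 ratios of 0.99 to 2.56. Zbp1, a sensor of Z-form nucleic acids, had 54 UMIs in 21 MSC-sEV members and 6 UMIs in 4 PBS members (3.54). The lower side of the list was held by Ifit3, which binds RNA-sensing partners, with 16 UMIs in MSC-sEV and 28 in PBS (-0.44); its neighbour Ifit3b is near-identical, so the 2 are uncertain.

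Irf7, a transcription factor that amplifies type I interferon, was singled out after its values were seen, as were Isg15 and Slfn2. It had 66 UMIs in 22 of 38 MSC-sEV members and 9 UMIs in 5 of 42 PBS members (3.24). Isg15, a ubiquitin-like protein, had 107 UMIs in MSC-sEV and 23 in PBS (2.59), and 35.5% of the MSC-sEV UMIs lay in 1 barcode. The Schlafen genes Slfn2 and Slfn5 were higher too, at log2 ratios of 2.29 and 2.00. At 1500 UMIs, Irf7 was seen in 15.8% of low-rod MSC-sEV members and 2.38% of PBS members, against 1.62% and 2.73% of rods, so its PBS share was no higher than that of rods. Zbp1 was seen in 26.3% and 4.76% of members, against 0.928% and 0.303% of rods.

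The interferon-inducible GTPases, guanylate-binding proteins and their relatives that act on pathogen-holding vacuoles, had the highest median of the lists. Only 4 of 16 were measured; all 4 were higher over all members, with a median log2 ratio of 2.98, and all 4 in the low-rod members, 3 of them at least 2-fold, with a median of 2.74. Gbp7 had 68 UMIs in MSC-sEV and 7 in PBS (3.65). Gbp2 had 45 and 2 UMIs, but 64.4% of the MSC-sEV UMIs were in 1 barcode. Without the MSC-sEV member that had an agreeing partner, the median was 1.69. Gbp2 then fell under 30 UMIs and no longer counted in that median, so the 2 medians cover unlike genes. Its own log2 ratio was 3.40 without that member.

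Promoter sequences are shown for 3 genes of these groups whose level was higher in MSC-sEV and whose upstream window held the interferon-response core GAAANNGAAA on either strand; they were chosen after their values were seen. Each line gives the 250 bases before the RefSeq gene start on GRCm38.p6, 5′ to 3′ on the gene's strand, with the motif in capitals (overlapping matches run together, and a match on the other strand shows as its reverse complement). The windows lie at chr4:156200819-156201068 on the minus strand for Isg15, at chr3:142530086-142530335 on the plus strand for Gbp7 and at chr11:82951852-82952101 on the plus strand for Slfn5.
Isg15: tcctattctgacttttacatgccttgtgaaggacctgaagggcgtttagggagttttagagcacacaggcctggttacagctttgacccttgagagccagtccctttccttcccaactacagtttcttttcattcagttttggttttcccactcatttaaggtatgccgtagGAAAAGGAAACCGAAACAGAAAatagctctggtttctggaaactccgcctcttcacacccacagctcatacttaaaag
Gbp7: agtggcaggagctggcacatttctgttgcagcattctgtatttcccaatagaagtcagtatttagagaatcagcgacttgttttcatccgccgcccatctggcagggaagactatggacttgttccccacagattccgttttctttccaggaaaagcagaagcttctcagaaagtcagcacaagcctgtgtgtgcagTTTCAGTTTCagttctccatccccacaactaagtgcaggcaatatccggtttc
Slfn5: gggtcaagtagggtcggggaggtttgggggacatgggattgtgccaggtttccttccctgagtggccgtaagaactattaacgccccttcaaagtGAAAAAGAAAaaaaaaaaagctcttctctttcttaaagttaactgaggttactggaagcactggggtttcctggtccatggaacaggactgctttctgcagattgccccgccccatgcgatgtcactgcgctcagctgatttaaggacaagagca
Isg15 held 3 overlapping matches that began 78, 72 and 66 bases before the start, Gbp7 had 1 that began 53 bases before it and Slfn5 had 1 at 155 bases. Over all genes 936 of 27025 (3.46%) held the motif in this window. It was present in 12 of 21 matched interferon response genes (57.1%), 9 of 10 GTPases (90.0%), 3 of 13 class I genes (23.1%), 2 of 12 chemokines (16.7%), 1 of 17 other homeostatic genes (5.88%) and 0 of 8 class II genes. A match describes letters in the window and does not show that a factor binds there.

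Pro-inflammatory genes were higher in MSC-sEV over all members in 15 of 15 measured, 12 of them at least 2-fold, with a median log2 ratio of 1.97. In the low-rod members 12 of 15 were higher, 6 of them at least 2-fold, 3 were lower, 1 of them at least 2-fold, and the median was 0.56. With every barcode thinned to 1500 UMIs before the member rule, the median was -0.45. Il1b, the precursor of the fever-inducing cytokine interleukin 1 beta (chromosome 2, 129364570 to 129371139, minus strand, GRCm38), had 217 UMIs in MSC-sEV (612 CPM) and 40 UMIs in PBS (87.3 CPM), a log2 ratio of 2.81 (interval of the ratio 4.98 to 10.1). At 1500 UMIs it was seen in 42.1% of low-rod MSC-sEV members and 2.38% of PBS members, against 3.48% and 0% of rods. Its relative Il1a differed less, with 268 CPM in MSC-sEV and 122 CPM in PBS (1.13), and Tnf had 34 and 16 UMIs (1.46). Cd14, the co-receptor for bacterial lipopolysaccharide, went the other way, with 214 CPM in MSC-sEV and 439 CPM in PBS (-1.03).

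Chemokines were uneven among themselves. Over all members 10 of 11 measured of 17 were higher in MSC-sEV, 8 of them at least 2-fold, with a median of 1.64, and in the low-rod members 7 were higher and 4 lower, with a median of 0.88. Ccl12, a mouse ligand of Ccr2, had 1367 CPM in MSC-sEV and 744 CPM in PBS (0.88). Ccl4, an attractant of macrophages and T cells, had 1029 CPM in MSC-sEV and 308 CPM in PBS (1.74), while its relative Ccl3 had 648 and 725 CPM (-0.16). Ccl5 and Ccl9 were lower, at log2 ratios of -0.57 and -1.16. Ccl2, singled out as the main attractant of Ccr2-positive monocytes, had 375 UMIs in 24 of 38 MSC-sEV members (1057 CPM) and 92 UMIs in 14 of 42 PBS members (201 CPM). At 1500 UMIs it was seen in 39.5% and 23.8% of them, and in 1.16% and 0.606% of rods. The high ratios of Cxcl10 and Cxcl13 rested on few barcodes: Cxcl10 had 120 UMIs in 4 MSC-sEV members, 65.8% of them in 1 barcode, against 1 in PBS, and Cxcl13 had 37 UMIs in 5 members against 3.

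Of the complement genes, 9 of 10 measured of 16 were higher in MSC-sEV over all members, with a median log2 ratio of 1.99, and 5 of 9 in the low-rod members, 4 of them at least 2-fold, with a median of 0.77. The C1q genes were part of the member rule and are described further on. C4b, a component of the classical pathway that C1q starts, had 122 UMIs in 23 of 38 MSC-sEV members and 20 UMIs in 10 of 42 PBS members (2.98). C3, the component on which the pathways converge, had 57 UMIs in 19 MSC-sEV members and 4 UMIs in 3 PBS members, or 161 and 8.73 CPM. Cfb, the alternative pathway's protease, had 36 UMIs in MSC-sEV and 3 in PBS. C4b has a near-identical neighbour, C4a, so its counts are uncertain. C3 and C4b were higher in every one of 15 settings tried, at log2 ratios of 4.08 to 6.99 and 2.65 to 4.24. The 6 Fc receptor genes, which bind antibody, were all higher over all members (median 1.79), and 4 of 6 in the low-rod members (0.64), with Fcgr4 at 282 CPM in MSC-sEV and 80.8 CPM in PBS and Fcgr2b, the inhibitory one, at 769 and 354 CPM.

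**Figure D4:**
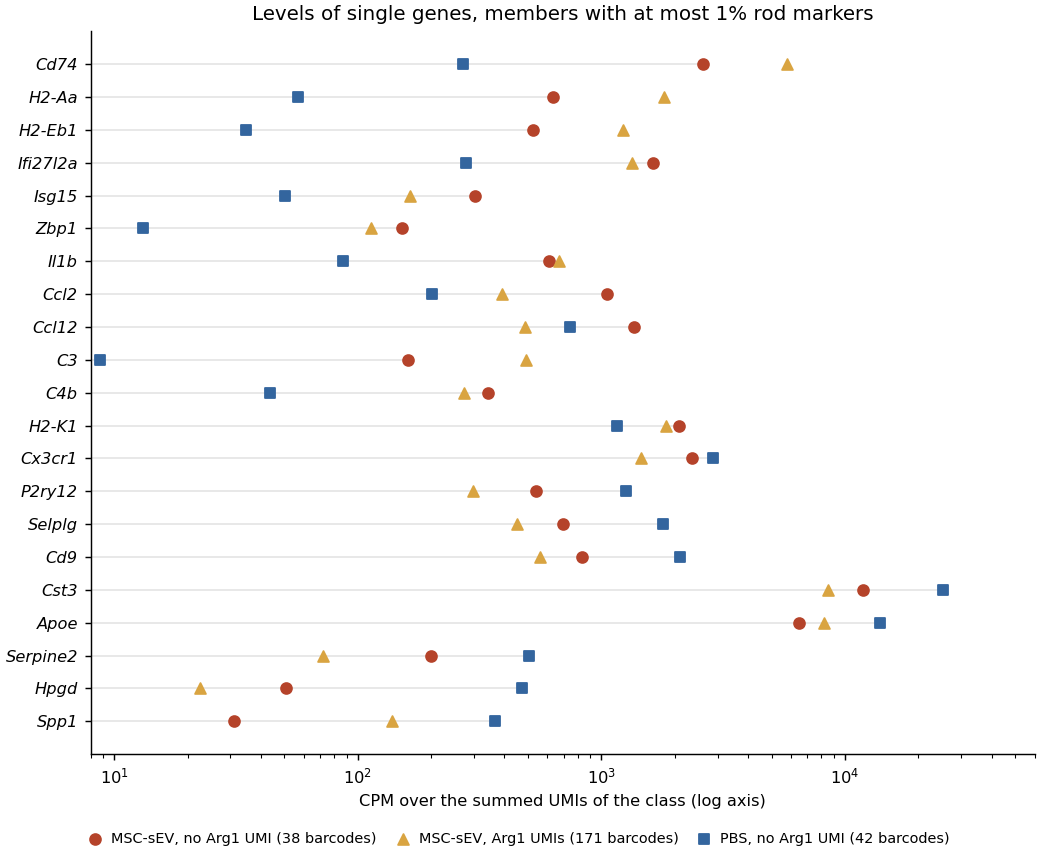
CPM (log axis) of genes named in the text, in low-rod MSC-sEV members without Arg1, MSC-sEV microglia with Arg1 and low-rod PBS members without Arg1; each point is the sum over the barcodes of a group. Cd74 stands at 2616, 5754 and 271 CPM in the 3 groups, and Hpgd at 50.7, 22.5 and 474 CPM.

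Other homeostatic genes, those outside the member rule, changed direction with the rod-rich barcodes. Over all members 23 of 24 were higher in MSC-sEV, 14 at least 2-fold, with a median log2 ratio of 1.11. In the low-rod members 6 were higher, 18 were lower, 2 of them at least 2-fold, and the median was -0.28. Cx3cr1, the fractalkine receptor, had 2354 CPM in low-rod MSC-sEV members and 2877 CPM in PBS (-0.29), but 2201 and 755 CPM over all members (1.54). Csf1r, the receptor that keeps microglia alive, and the protease Ctss were close, at log2 ratios of -0.07 and 0.07. The 2 at least 2-fold lower were Selplg, a selectin ligand, with 696 CPM in MSC-sEV and 1788 CPM in PBS, and Cst3, the secreted protease inhibitor cystatin C, with 11849 and 25222 CPM. By barcode the list summed to a median of 43559 CPM in low-rod MSC-sEV members (17000 to 67606) and 63465 CPM in PBS members (15781 to 91935), and to 16334 CPM in the rod-rich PBS members.

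The genes of the member rule shifted likewise, as a description only. Over all members Tmem119, Siglech, Sall1 and Olfml3 had log2 ratios of 1.08, 1.30, 2.28 and 1.55. In the low-rod members they stood at -0.34, -0.44, 0.59 and 0.19. P2ry12, the ADP receptor that steers microglial processes, had 538 CPM in low-rod MSC-sEV members and 1259.6 CPM in PBS (-1.23), and Gpr34 and Fcrls stood at -1.38 and -1.39. Over all members these 3 genes were at 0.35, 0.20 and -0.21. The C1q genes, which start the classical complement pathway, were between -0.03 and 0.17. Of the other regulators, microglia transcription factors had medians of 1.05 over all members and -0.19 in the low-rod members, TGF-beta signalling genes 1.38 and 0.07, CSF receptors and adaptors 1.43 and -0.07, and purine sensing genes 1.33 and 0.19. Mef2c, a transcription factor of homeostatic microglia, had 338 CPM in low-rod MSC-sEV members and 755 CPM in PBS (-1.16), but stood at 0.27 over all members and below 0 in 5 of 15 settings. Among the CSF receptors, Csf2rb and Csf2rb2, the shared and the interleukin 3 beta chains, were higher (1.61 and 2.47).

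Hpgd, which encodes the enzyme that inactivates prostaglandins (chromosome 8, 56294585 to 56321043, plus strand, GRCm38), was lower in MSC-sEV in both sets. It had 18 UMIs in 10 of 38 MSC-sEV members (50.7 CPM) and 217 UMIs in 40 of 42 PBS members (474 CPM), so that PBS stood 9.34 times higher (5.77 to 16.1). At 1500 UMIs it was seen in 5.26% of MSC-sEV and 50% of PBS members, against 0% and 0.303% of rods. Over all members it was present in 10 of 46 and 79 of 112 barcodes, with a log2 ratio of -1.71. The difference was thus seen in the share of barcodes as well as in the level, and had the same sign in all 15 settings tried, at -3.31 to -1.56. The prostaglandin and leukotriene list as a whole was mixed, with medians of 1.11 over all members and 0.08 in the low-rod members.

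Other lower genes were met when the rule for named genes was applied to the low-rod members, an alternative chosen after seeing the data. Apoe, the lipid carrier, had 6443 CPM in MSC-sEV and 13905 CPM in PBS (-1.11), and the tetraspanin Cd9 had 829 and 2100 CPM (-1.34). Serpine2, a protease inhibitor, stood at -1.33, the kallikrein protease Klk8 at -2.54, Tmx4 at -1.97, Ppcdc at -1.95, the receptor-activity modifying protein Ramp1 at -1.83, and the AP-1 subunits Jun and Jund at -1.04 and -1.23. Over all members the ratios were -0.17 for Apoe, -0.43 for Cd9, 0.00 for Serpine2, -0.87 for Klk8, -0.66 for Tmx4, -0.46 for Ppcdc, -0.61 for Ramp1 and -0.18 for Jund, and Jun turned to 0.41. Jun was below 0 in 4 of 15 settings. Cd9 was below 0 in all 15 settings and Apoe in 13. Spp1, osteopontin, had 11 UMIs in 5 MSC-sEV members and 168 UMIs in 6 PBS members, and 67.3% of the PBS UMIs lay in 1 barcode. Its ratio therefore rested on single barcodes.

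The 15 higher genes named over all members were Tbc1d4, Ccl24, C3, Cxcl13, Pim1, Il1b, Zbp1, Cfb, C4b, Egr3, Gbp7, Slfn5, Cd72, Ifi27l2a and Gatm. Those not yet described include Pim1, a kinase, Egr3, an immediate-early factor, Cd72, an inhibitory receptor, and Gatm, an enzyme of creatine synthesis. Pim1 had 98 UMIs in low-rod MSC-sEV members and 10 in PBS members (3.66). Ccl24 had 35 UMIs in MSC-sEV and 1 in PBS, a ratio of 45.2 with an interval of 7.60 to 1835, and 60% of the MSC-sEV UMIs lay in 1 barcode. Its level was 98.7 CPM in low-rod MSC-sEV members and 2.18 CPM in PBS members, beside 42.6 and 0 CPM in rods. At 1500 UMIs it was seen in 10.5% and 0% of members, against 4.64% and 0% of rods. How much of the ratio came from free RNA was not tested. Cd72 had 169 and 32 UMIs (2.77), and Gatm had 289 and 82 (2.19). Pim1, Egr3, Cd72 and Gatm were above 0 in each setting that gave a value.

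Disease-associated microglia genes were not all higher or lower together. Over all members 17 of 22 measured of 23 were higher in MSC-sEV, with a median of 0.84, and in the low-rod members 8 were higher and 13 lower, with a median of -0.22. Axl, a receptor for dying cells, was higher (338 CPM in MSC-sEV, 144 CPM in PBS), as was Cst7, cystatin F (200.1 and 98.2 CPM). Lpl, lipoprotein lipase, was lower (13 and 50 UMIs), and Trem2, a lipid sensor, stood at -0.63. Genes of phagocytosis and lipid handling had a median of 0.70 over all members and -0.16 in the low-rod members. Cathepsins and lysosomal genes had 1.25 and 0.05, although the prosaposin gene Psap and the progranulin gene Grn were at 0.90 and 0.88 in the low-rod members. Immediate-early genes had 1.15 and -0.25, integrins and adhesion genes 1.58 and -0.11, matrix genes and proteases 0.99 and -0.15, and growth factors 1.24 and 0.45. Co-stimulation genes had 1.63 and 0.14, heat shock genes -0.20 and 0.64, cell cycle genes -0.48 and 0.32, and iron and metallothionein genes 0.11 and -0.48, with Mt1 at -1.23.

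Energy metabolism genes were lower in MSC-sEV over all members and near the PBS level in the low-rod members. Of 24 oxidative phosphorylation genes 23 were lower in MSC-sEV over all members, with a median of -1.04, while 19 were higher in the low-rod members, with a median of 0.25. Glycolysis genes had medians of -1.84 and -0.14. Gapdh had 1584 CPM in all MSC-sEV members and 4899 CPM in all PBS members, but 1485 and 1124 CPM in the low-rod members, beside 2759.5 and 4145 CPM in rods. The 15 lower genes named over all members held fewer UMIs without the rod-rich barcodes, but not all lost the difference. Trnp1 kept 1 UMI in low-rod MSC-sEV members and 86 in PBS members, Mgarp 10 and 172 (-3.74), and Sncb 3 and 74. Much of this rested on single barcodes. The highest PBS barcode held 59.3% of the PBS UMIs of Trnp1, 47.1% of Mgarp and 59.5% of Sncb. Platr17, Pcsk1n and Car2 also stayed lower, with 2, 2 and 4 UMIs in MSC-sEV, against 39, 28 and 32 in PBS. Their highest PBS barcode held 33.3%, 32.1% and 31.2% of these PBS UMIs. Guca1b, an activator of the photoreceptor guanylate cyclase, had 45 UMIs in all MSC-sEV members and 3042 in all PBS members, against 10 and 23 in the low-rod members (-0.83), and stood at 1498 and 1609 CPM in rods. Vtn, which encodes vitronectin, had 36 UMIs in all MSC-sEV members and 3746 in all PBS members, against 7 and 16 in the low-rod members (-0.82). The others were Cartpt, Ckmt1, Krt18, Prcd, Spc25, Fxyd1 and Pdpn.

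Within the MSC-sEV library, the 46 microglia without Arg1 were set against the 171 that had it, which held 2710223 UMIs with a median of 13803 per barcode. The members were chosen by Arg1 and were shallower, so these values are a description of 1 library. Of 8371 genes, 280 were at least 2-fold higher without Arg1 (3.34%) and 499 at least 2-fold lower (5.96%). Alternative activation genes, which include Arg1's companions in mouse macrophages, were lower in 12 of 14 measured, 8 of them at least 2-fold, with a median log2 ratio of -1.45. Ccl24, an eosinophil attractant, had 87.6 CPM without Arg1 and 1135 CPM with it (-3.70). Fn1, fibronectin, had 42.6 and 399 CPM (-3.23), Igf1, a growth factor, stood at -3.06, and Lgals3, galectin 3, at -2.75. MHC class II genes were lower in 9 of 10, with a median of -1.01 and a sum of 4935 CPM without Arg1 and 11410 CPM with it.

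Homeostatic and chemokine genes were higher in the microglia without Arg1. Homeostatic genes were so in 22 of 24, though only 3 at least 2-fold, with a median of 0.30, and the purine receptor P2ry13 was at 1.36. Chemokines were higher in 11 of 14, 8 of them at least 2-fold, with a median of 1.08. Ccl2 had 909 CPM without Arg1 and 392 CPM with it. Pro-inflammatory genes had a median of 0.52, interferon response genes 0.34 and GTPases -0.03. Hpgd was low in both, at 42.6 CPM without Arg1 and 22.5 CPM with it. Class II genes were in between: low-rod MSC-sEV members without Arg1 had a median sum of 1331.6 CPM per barcode. All 171 MSC-sEV microglia with Arg1, taken without a rod limit, had 3185 CPM, and low-rod PBS members had 686 CPM. Chemokines were at 4326, 2094 and 2084 CPM in the same order.

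**Figure D5:**
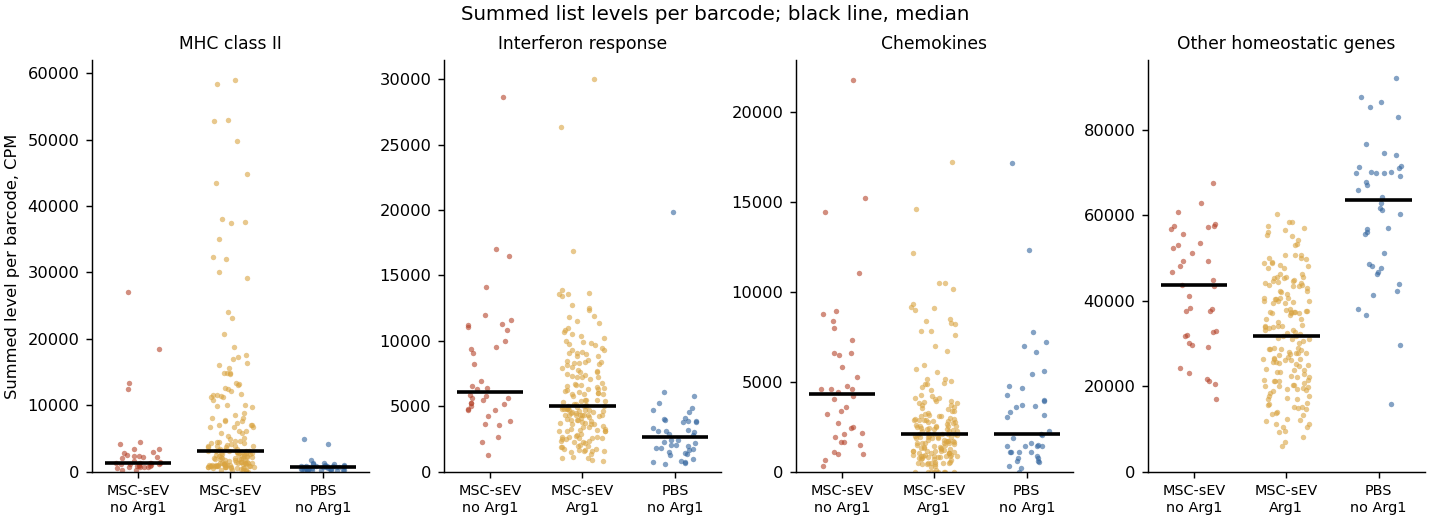
Summed CPM per barcode of 4 gene lists in low-rod MSC-sEV members without Arg1, MSC-sEV microglia with Arg1 and low-rod PBS members without Arg1; each point is 1 barcode and the black line is the median. The interferon response medians are 6086, 5012 and 2621 CPM, and the groups overlap in all 4 lists.

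Markers of other cell types were summed over all members. The rod list, with all 20 genes detected in both libraries, summed to 7401 CPM in MSC-sEV and 90569 CPM in PBS, and by barcode ran over 354 to 102710 and 1921 to 185770 CPM. Its sum in the low-rod members was 1609 and 3246 CPM. Cone markers summed to 511 CPM in MSC-sEV, with 9 of 10 genes detected, and to 6316 CPM in PBS, with all 10, and in the low-rod members to 383 and 581 CPM. Bipolar cell markers summed to 99.4 CPM in MSC-sEV and 959 CPM in PBS, and Trpm1, Vsx1, Isl1 and Cabp5 were at 0 in MSC-sEV. Their sum in the low-rod members was 64.8 and 1212 CPM. That PBS sum lay in few barcodes: by barcode the median was 118 CPM and the highest value 16294 CPM, against a median of 511 CPM in rod-rich PBS members. Müller glia markers summed to 871 CPM in MSC-sEV and 3726 CPM in PBS, with Aqp4, Dkk3 and Gpr37 at 0 in MSC-sEV, and to 800.5 and 884 CPM in the low-rod members. Amacrine and ganglion cell markers summed to 142 CPM in MSC-sEV and 397 CPM in PBS, and to 64.8 and 162 CPM in the low-rod members. Endothelial and mural markers summed to 61.5 and 164 CPM, and to 56.4 and 45.8 CPM in the low-rod members. Pigment epithelium markers summed to 9.47 and 10.1 CPM, and to 8.46 and 10.9 CPM in the low-rod members. Neuronal RNA was thus higher in the PBS members in both sets, while Müller and endothelial markers were close once the rod-rich barcodes were left out.

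Summed markers of several blood-derived cells were higher in MSC-sEV. Classical monocyte markers summed to 286 CPM in MSC-sEV and 25.9 CPM in PBS, with 8 and 6 of 12 genes detected and at most 1762 and 905 CPM in a barcode, and to 302 and 26.2 CPM in the low-rod members. Vcan, Hp and Gpr141 were at 0 in both libraries, Ly6c2 and Chil3 were at 0 in PBS, and Ccr2 had 14 UMIs in MSC-sEV members and 1 in PBS members. Monocyte-macrophage markers summed to 644 CPM in MSC-sEV and 144 CPM in PBS, with at most 6540 and 4933 CPM in a barcode, and to 741 and 148 CPM in the low-rod members. Dendritic cell markers summed to 350.3 CPM in MSC-sEV and 82.0 CPM in PBS, and to 406 and 175 CPM in the low-rod members, with Cd209a, Xcr1 and Clec9a at 0 in both libraries. The sums of these 3 lists were higher in MSC-sEV in both sets, but by barcode the dendritic list was not. In the low-rod members its median was 39.7 CPM in MSC-sEV (highest 3129) and 109.9 CPM in PBS (highest 804). The MSC-sEV barcode with dendritic cell genes weighed on the monocyte sums too. It held 184 of the 210 Fabp5 UMIs of all MSC-sEV members, whose whole monocyte-macrophage list came to 272 UMIs. S100a4, of the classical monocyte list, had a low-rod log2 ratio of 5.41, and of 3.49 without this barcode (8 UMIs in MSC-sEV, 1 in PBS). Of 5 measured monocyte-macrophage genes, 2 were higher and 3 lower in MSC-sEV over all members. Both monocyte lists hold genes of the member rule, such as Chil3 in the first and Retnla and Ms4a7 in the second. Their sums and counts thus follow in part from that choice and are a description only.

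For the remaining lists the gap was smaller in the low-rod members. T and NK cell markers summed to 192 CPM in MSC-sEV and 7.89 CPM in PBS over all members, but to 39.5 and 30.6 CPM in the low-rod members, with 14 UMIs in each. B and plasma cell markers summed to 331 and 102 CPM over all members, and to 352 and 240.1 CPM in the low-rod members. Granulocyte markers summed to 1451 and 541 CPM over all members, and to 1508 and 1168 CPM in the low-rod members. Erythroid markers summed to 56.8 CPM in MSC-sEV and 6792 CPM in PBS, and to 62.0 and 67.7 CPM in the low-rod members. The part of these transcripts in the class II and chemokine results was not tested.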

How the data were processed

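Retinal cells of 2 pooled samples were profiled with the 10x Chromium 3′ v3 chemistry, per the labels' protocols. The authors deposited raw UMI counts per gene and barcode for each library, made with Cell Ranger 3.0.2 on mm10, per the submitters' processing notes. Settings beyond these are not given in the sources used here. The members and gene lists were chosen with earlier results of these data known.

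Counts of 31053 genes were summed over the members of each library and divided by their total (CPM). Genes with at least 30 UMIs over the members were compared, and a 2-fold difference was called. Log2 ratios were taken of CPM. A count of 0 was set to a floor of 3 counts, and all other counts were used as they were. Intervals of ratios are exact conditional binomial and those of shares Clopper-Pearson, at 95%, and both cover counting error only. Those of shares take each barcode as an independent draw, although 40 PBS members fell into agreeing groups, so they may be too narrow. A UMI counts a captured molecule, so depth sets which genes and which Arg1 transcripts were seen. Named genes were the 15 higher and the 15 lower genes with an interval bound farthest from 1 and a UMI in at least 10% of members, without mitochondrial, ribosomal, sex-linked, haemoglobin, rule and other cell types' genes, plus for each list the 4 with the most UMIs and the 2 with the largest ratio in each direction. Genes outside this rule were singled out after their values were seen, and some genes are not reported here. Rods were barcodes with at least 5 of 10 rod genes and no UMI of the C1q genes or the microglia genes of the rule. They served as background, which this choice can make too low for microglia RNA. Scrublet in scanpy 1.11.5 called 0 of 1775 MSC-sEV barcodes and 5 of 896 PBS barcodes (0.558%) as doublets. No barcodes were removed on these calls, and whether the rod-rich barcodes were doublets was not tested. Pairs of barcodes were compared by the mean chi-square over at least 100 genes with at least 10 UMIs in the pair. Agreeing pairs that shared a barcode were joined into 1 group. The scripts, in python 3.11.15, were checked on simulated counts. Promoters came from RefSeq (GRCm38.p6) and gene positions from the GENCODE annotation of GRCm38.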

Additional observations from a re-analysis of the deposited data

How the results depend on the processing

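No paired analysis was possible because each group is 1 library. Over all members, 1666 genes were at least 2-fold higher in MSC-sEV and 2063 lower. With at most 1% rod markers these counts were 267 and 274, and the medians were -0.28 for other homeostatic genes, -0.22 for disease-associated genes, 0.66 for class I and 1.55 for interferon response. Medians below 0 appeared for transcription factors (-0.19), CSF receptors (-0.067), integrins (-0.11) and immediate-early genes (-0.25), and oxidative phosphorylation stood at 0.25. With at most 1% retinal neuron markers (38 and 40 members, chosen after seeing the data) the counts were 273 and 204, and those medians were -0.36, -0.30, 0.59 and 1.43, then -0.26, -0.16, -0.22, -0.31 and 0.30. TGF-beta signalling (-0.014), lysosomal (-0.0074), prostaglandin (-0.031) and glycolysis genes (0.21) turned too.

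With barcodes thinned to 1500 UMIs before the rule (68 and 52 members), the ratio of member shares was 0.660 in place of 0.207, the counts were 63 and 56 of 847 genes, and the medians were -0.23 for homeostatic, -0.20 for disease-associated, 0.83 for class I and 1.42 for interferon response genes. Transcription factors (-0.45), TGF-beta signalling (-0.32), CSF receptors (-0.36), pro-inflammatory (-0.45) and immediate-early genes (-0.13) turned. With the Arg1 condition dropped, the share ratio was 0.978, the homeostatic median 0.68, the class II median 3.88 and the log2 ratio of Spp1 0.18. With barcodes weighted equally, 1029 genes were higher, and the medians were 0.24 for homeostatic, 0.55 for disease-associated, 1.16 for class I and 1.41 for interferon response genes. With at least 100 UMIs per gene, 702 were higher and 1046 lower. With agreeing barcodes counted once (45 and 83 members, chosen after seeing the data), the homeostatic median was 0.79. Scaling by the median ratio moved all genes by 0.16 (log2), to 2045 higher and 1796 lower. Over 15 settings the class II, class I and interferon medians stayed above 0, at 1.18 to 3.88, 0.59 to 1.87 and 1.41 to 2.36. The cause of these shifts was not tested. The depth of the MSC-sEV members limits genes under 30 UMIs, and with 1 pool per group no value shows how mice vary.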

Other observations

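Within the members, Isg15 and Il1b were seen together in 14 of 46 MSC-sEV barcodes, of 23 with Isg15 and 24 with Il1b, and in 8 of 112 PBS barcodes, of 36 and 13. H2-Aa and Isg15 were seen together in 9 MSC-sEV barcodes, of 16 and 23, and in 10 PBS barcodes, of 17 and 36. Hpgd and Isg15 were seen together in 7 MSC-sEV barcodes, of 10 and 23, and in 25 PBS barcodes, of 79 and 36. These are counts of barcodes with a UMI, without thinning to equal depth.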
